A study of Drosophila melanogaster with 17 samples.

Results

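INE-1 is the most widespread transposable element of Drosophila melanogaster, a short Helitron-like DNA element that encodes no protein of its own. Its copies are old, most of them can no longer move, and they lie densely near the centromeres and along chromosome 4, the small, largely heterochromatic chromosome of the fly. Many sit in introns, where the host gene's primary transcript passes through them, so a read on a copy may come from the element or from the host's unspliced or extended RNA.

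The head table listed 5416 annotated transposon insertions among 23882 rows, and 2234 of the insertions were named INE-1 in the Ensembl annotation of BDGP6, the assembly also called dm6. Of the 2234, 951 had no count in any of the 8 head libraries, 576 had 1 to 9 counts in all and 707 reached the sum of 10 counts needed to be described. There were 29 insertions with a sum of exactly 10 and 28 with a sum of 9. The 707 held 98.6% of the 150486 INE-1 counts, 230 of them had at least 100 counts and 30 had at least 1000. A total of 352 passed the count filter of the tests, and the other 355 described insertions are given by their counts. The 352 include some that passed through the group in which they were high.

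The flies were mated males, housed 20 to a vial under 12 h of light and 12 h of dark at 25 °C and a humidity of 60%, and their heads were taken at ZT8, 8 h after lights on. The genotypes were w1118, a strain that lacks white function, and orco2, a mutant of the odorant co-receptor gene Orco. Both were sampled at day 3 and day 40, with 2 libraries in each of the 4 groups and oligo(dT) selection of the RNA. The labels do not say whether the strains share a genetic background, so the orco2 mutation and other differences between the strains cannot be told apart, and they do not say whether the 2 libraries of a group came from separate flies.

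Total counts ran from 27082849 to 33932201 per library. Orco was lower in orco2 heads at day 3 (-2.10 ± 0.28, log2 fold change ± SE, adjusted p = 0.00427 by edgeR), where it still had 45 and 46 counts, and at day 40 (-1.47 ± 0.29, adjusted p = 0.0174). The white gene w had 0 and 1 counts in w1118 and 851 and 934 in orco2 heads at day 3. Summed levels of 15 eye and brain markers ran from 66558 to 107345 CPM (counts per 1000000, scaled by TMM), and those of 11 testis markers stayed between 1.67 and 3.36 CPM. The sum of 16 gut markers was 663 CPM in 1 orco2 library of day 3 and 7.07 in the other, 84.2 and 514 in w1118 at day 40 and 398 and 419 in orco2 at day 40, against 9.60 and 10.3 in w1118 at day 3. Fat body markers (11 genes) summed to 1989 and 2515 CPM in w1118 and to 5915 and 8267 in orco2 at day 3, and to 6711 and 7934 against 14170 and 16898 at day 40. The part of these differences in the INE-1 values was not tested.

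INE-1 reads came mostly from chromosome 4. Of the 344 INE-1 insertions there, 245 (71.2%) reached 10 counts, against 162 of 500 (32.4%) on 2R, 68 of 238 (28.6%) on 3R, 99 of 399 (24.8%) on 2L, 85 of 392 (21.7%) on 3L and 48 of 361 (13.3%) on X. Chromosome 4 held 15.4% of all INE-1 insertions, 34.7% of those described and 64.6% of all INE-1 counts. A larger share of the copies was described on chromosome 4 than on any other arm.

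**Figure D1:**
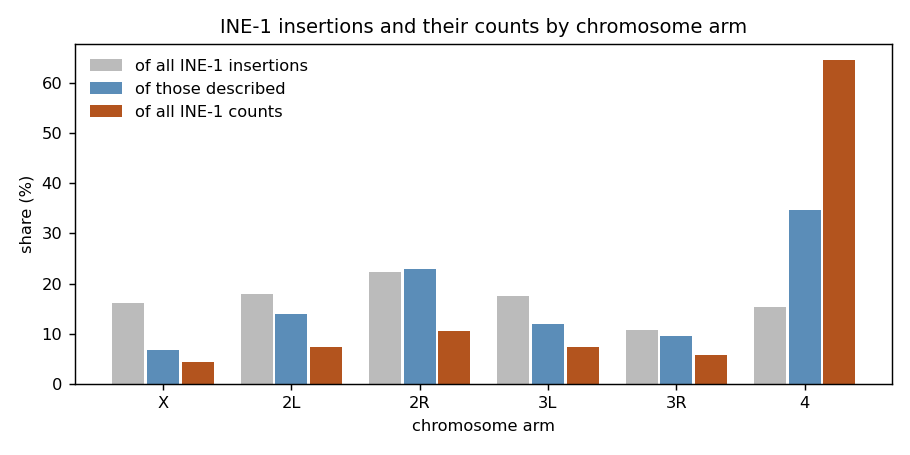
Bars give, for each chromosome arm (x axis), the share in percent (y axis) of the 2234 INE-1 insertions, of the 707 described and of all INE-1 counts over the 8 head libraries. Chromosome 4 rises from 15.4% of the insertions to 64.6% of the counts, while every other arm has a smaller share of the counts than of the insertions.

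Introns were the other common feature. Of 1108 intronic INE-1 insertions 502 (45.3%) were described, against 183 of 979 between genes (18.7%) and 22 of 147 that overlap an annotated exon (14.97%), and introns gave 77.7% of INE-1 counts. Described copies were longer, with a median of 212 bases against 146 for all INE-1 insertions and 116 for those without a count, and a longer copy also offers more bases to reads. Among intronic copies, the described lay a median of 430.5 bases from the nearest exon of their host, against 753.5 for all. Their hosts had a median mean level of 137 CPM (500 insertions with a host in the table), against 58.2 CPM for intronic insertions under 10 counts (603 insertions), so the copies that were read lay in genes with more reads. Among described intronic copies, 298 lay on the same strand as the host and 204 on the opposite one, a split close to the 630 and 478 over all intronic INE-1. The copies between genes lay a median of 550 bases from the nearest gene when described and 1143 bases over all. Of the 183 described, 98 lay downstream of that gene and 85 upstream, with median distances of 373.5 and 857 bases.

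The described insertions in genes (524) fell into 227 hosts, and 403 of them shared a host with another described insertion. The eyeless paralogue toy held 14, Cadps, which primes dense-core vesicles for release, held 13, and sxc, which encodes O-GlcNAc transferase, and the Pax gene sv held 10 each. Insertions of 1 host share its transcript and are not independent of each other. AGO3, an Argonaute protein of the piRNA pathway that silences transposons, itself held 6, but with only 10 to 71 counts each, and the gene had 7 to 28 counts per library.

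The most reads fell on INE-1{}3381, an 1101-base copy in an intron of CaMKII, the calcium and calmodulin dependent kinase of synapses (chromosome 4, 1038710 to 1039810). It had 1996 and 1888 counts in w1118 and 1534 and 1375 in orco2 at day 3, and 1647 and 1252 against 787 and 807 at day 40. The day 40 orco2 libraries were thus the lowest of the 8, and apart from both w1118 libraries of day 40. INE-1{}3385, INE-1{}3383 and INE-1{}3388 of the same gene followed with 8450, 3419 and 2925 counts over the 8 libraries, and the 7 described copies of CaMKII held 27610 counts in all.

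Of the 12 copies with the highest mean CPM, not divided by length, the other 8 were 5 in introns and 3 between genes. The intronic ones were INE-1{}5916 in CaMKI, another calmodulin-dependent kinase (10.5 CPM), INE-1{}5345 in PMCA, the plasma membrane calcium pump (9.93 CPM), INE-1{}3224 in the cell adhesion gene nrm (9.85 CPM), INE-1{}3979 in Cadps (7.36 CPM) and INE-1{}3942 in CG11155 (6.54 CPM). Those between genes were INE-1{}5930, 128 bases upstream of asRNA:CR45126 (13.1 CPM), INE-1{}3643, 100 bases downstream of flip (10.7 CPM), and INE-1{}3974, 136 bases downstream of the kinase gene Dyrk3 (8.23 CPM). Of these 8, 6 lie on chromosome 4, and the 12 together held 29.8% of INE-1 counts.

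Most intronic copies were read at a small part of their host's exon level. Over 494 described intronic insertions with a read host, the median level per kb was 6.35% of the host's level per kb of exon, with quartiles of 2.13 and 16.7%, and 22 insertions lay above 100%. Copies above 100% include some in hosts with few reads, such as INE-1{}5814 (29 counts) at 795% of AGO3, whose exons had 0.188 CPM per kb. In CaMKII the exons had 197 CPM per kb, and INE-1{}3383, 84 bases long, reached 166 CPM per kb, while INE-1{}3406 had 5.24. Levels per kb of very short copies are uncertain, since reads that lie only partly on them may raise them. In nrm 2 of the 7 described copies lay above the exons, which had 16.3 CPM per kb, namely INE-1{}3224 at 48.3 and INE-1{}3227 at 19.3. The other 5 ran from 0.628 to 11.6 CPM per kb.

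The summed level of all INE-1 insertions was lowest in old orco2 heads. It was 707 and 686 CPM in w1118 and 774 and 712 in orco2 at day 3, and 604 and 508 against 433 and 461 at day 40. As group means it was 697 ± 14.98 CPM for w1118 and 743 ± 44.0 for orco2 at day 3 and 556 ± 67.8 and 447 ± 20.0 at day 40 (SD, n = 2 each). Both libraries of day 40 lay below both of day 3 in each genotype, and the order of the genotypes was opposite at the 2 ages without overlap of their libraries. No test was made of this sum. Mean summed levels of intronic copies, copies between genes, copies on chromosome 4 and copies elsewhere had the same order of groups, but at day 3 the libraries of the 2 genotypes overlapped for intronic copies and for those on chromosome 4. Copies that overlap an exon did not have this order and stayed between 8.43 and 10.4 CPM.

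The summed level of other transposon insertions had another order of groups. The 3182 other insertions summed to 1354 ± 3.90 CPM in w1118 and 1739 ± 302 in orco2 at day 3, and to 1376 ± 189 and 1427 ± 79.7 at day 40 (SD, n = 2 each). INE-1 made up 33.7 and 34.3% of all insertion counts in w1118 and 28.4 and 31.8% in orco2 at day 3, 28.6 and 29.0% in w1118 and 23.7 and 24.0% in orco2 at day 40. The share was thus lowest in old orco2 heads, as the level was. Taken singly, most other insertions were lower at day 40 than at day 3 in orco2 heads. Of 749 tested, 50 fell and 25 rose at an adjusted p under 0.05 by edgeR (6.68% and 3.34%, against 11.4% and 12.8% of all rows tested). Of these 749, 64.9% lay below 0 and the median log2 fold change was -0.46, against -0.11 in w1118. Against w1118 at day 40, 50 were higher and 38 lower in orco2 (6.68% and 5.07%, against 8.06% and 4.89% of all rows tested). The median there was -0.04, with 51.4% below 0, beside a median of -0.40 for INE-1. As in any bulk sample, fewer cells of a type and less RNA per cell cannot be told apart here.

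**Figure D2:**
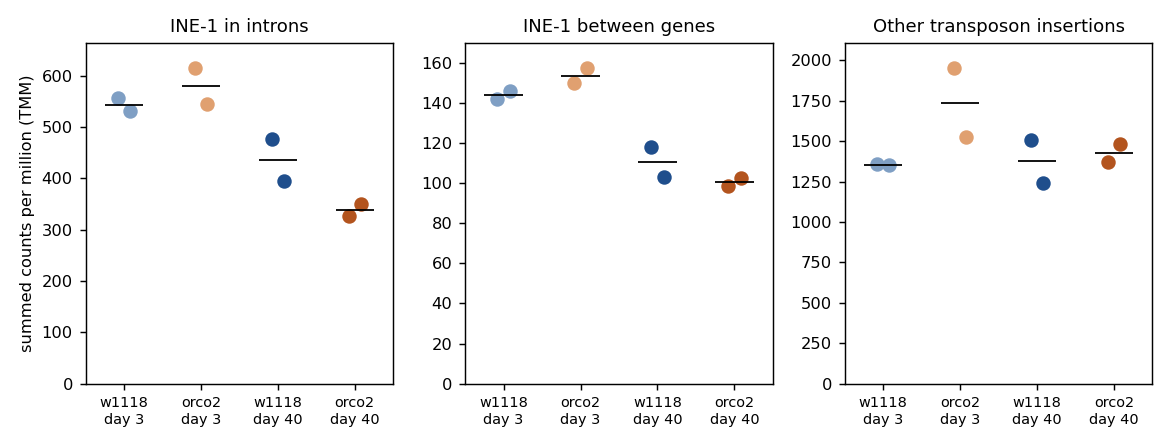
Points are single libraries, 2 per group, and lines are group means; the y axis of each panel is the summed level in CPM. INE-1 copies in introns and between genes are lowest in day 40 orco2 heads, whereas other transposon insertions overlap between the 2 genotypes at day 40.

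The first comparison was that of the genotypes. In the tests below, run with edgeR's quasi-likelihood method on all 12243 rows that passed the filter, an insertion rose, fell or differed when its Benjamini-Hochberg adjusted p was under 0.05, sizes are log2 fold changes ± SE, and the p-values reflect no more than how far the libraries of a group lie apart, a spread that may be technical. Some insertions passed the filter only through the group in which they were highest, so their calls are not independent of the filter. INE-1{}2071, INE-1{}3358, INE-1{}4316 and INE-1{}5232 did so through w1118 at day 40, and INE-1{}4461 and INE-1{}1741 through orco2 at day 3. INE-1{}2730 did so through orco2 at day 40, and copies with 0 counts in 1 genotype through the other. INE-1{}3309, INE-1{}3320, INE-1{}3476 and INE-1{}4117 passed only through the orco2 libraries, and INE-1{}3879 and INE-1{}5869 only through those of w1118. INE-1{}5912 passed only through the day 3 libraries. At day 3, 12 of the 352 INE-1 insertions were higher in orco2 heads (3.41%, against a background of 4.85% of all rows tested) and 3 were lower (0.852%, against 2.43%). At day 40, 10 were higher (2.84%, against 8.06%) and 10 lower (2.84%, against 4.89%). Over both ages 15 were higher (4.26%, against 11.9%) and 10 lower (2.84%, against 7.75%). The share called lay below the background in all 6 counts, a gap that was not tested. The counts moved with single libraries, from 5 to 25, 4 to 33 and 14 to 46 in both directions together when 1 library was left out.

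The median log2 fold change of INE-1 was 0.07 at day 3 against 0.01 over all rows, and -0.40 at day 40 against 0.00. Without orco2 replicate 1 of day 3 the day 3 median was -0.07, so it had no settled sign. Without w1118 replicate 1 of day 40 the day 40 median was -0.21. Without the count filter, over 1283 INE-1 insertions, the day 40 median was -0.24. At day 40, 239 of the 352 lay below 0, and in 138 both orco2 libraries lay below both w1118 libraries (39.2%, against a background of 32.9% of all rows). Of the insertions called in any of these comparisons, 15 were higher in orco2, 14 were lower and 0 were in both sets. A group of 9 was higher at both ages, and 2, INE-1{}3879 and INE-1{}5913, were lower at both ages.

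Several copies were read in 1 genotype alone. Of the 707 described, 12 had no count in any w1118 library and 14 none in any orco2 library, and 10 of these 26 had at least 1 count in each of the 4 libraries of the other genotype, 6 in orco2 and 4 in w1118. With at most 2 counts allowed in place of 0 there were 18. Only 4 of the 10 passed the count filter. Whether the copy is absent from a strain or present and not read cannot be told from the counts. The limit of 3 counts over a group, used below for groups with no count, covers counting error only. The exact 95% intervals of ratios below pool the libraries of a group, so they too cover counting error only and hold no spread between libraries.

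INE-1{}3470, with the most counts among the copies read in 1 genotype alone, is a 193-base copy that lies 674 bases upstream of CG9380, on 2R (25255992 to 25256184). It had 0 counts in all 4 w1118 libraries, 324 and 327 in orco2 at day 3 and 105 and 99 at day 40. Its level in orco2 was at least 254-fold higher at day 3 (adjusted p = 0.000362 by edgeR) and at least 84.2-fold higher at day 40 (adjusted p = 0.000557), taking the floor of 3 counts over the w1118 group. With age it fell by 1.68 ± 0.26 on the log2 scale in orco2 heads (adjusted p = 0.00763).

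INE-1{}3469, 85 bases long, lies in an intron of CG9380 and 52 bases beyond the nearest exon of CG30428 (2R, 25254587 to 25254671). It too had 0 counts in w1118, and 65 and 46 in orco2 at day 3 and 45 and 47 at day 40, at least 43.2-fold and at least 38.0-fold higher (adjusted p = 0.00429 and 0.00417 by edgeR). CG30428 itself was read at 6 and 0 counts in w1118 and 483 and 540 in orco2 at day 3, and at 1 and 0 against 372 and 455 at day 40 (8.61 ± 0.49 over both ages, adjusted p = 4.85e-05). CG9380 was higher in orco2 over both ages too (2.57 ± 0.41, adjusted p = 0.00418). The neighbours of both copies thus differed in the same direction, though CG9380 was not at 0 in w1118, with 18 to 76 counts. The gene functions are not given here.

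A second pair lies on chromosome 4 beyond fuss, a gene of the Ski family of transcriptional regulators. INE-1{}3320 (982000 to 982431, 3511 bases upstream of fuss) had 11 and 8 counts in w1118 and 219 and 526 in orco2 at day 3, and 1 and 2 against 118 and 149 at day 40. Its difference was 5.52 ± 0.55 at day 3 (adjusted p = 0.0012 by edgeR) and 6.65 ± 0.68 at day 40 (adjusted p = 0.00123), where the 3 counts of the w1118 group give a ratio of 110 with an exact 95% interval from 37.3 to 538. INE-1{}3309 (980272 to 980722, 1783 bases upstream) had 3 and 0 counts against 98 and 145 at day 3 and 0 and 4 against 72 and 77 at day 40. The ratio for INE-1{}3309 at day 3 was 94.7 with an exact 95% interval from 32.0 to 462, and at day 40 it was higher by 5.43 ± 0.95 (adjusted p = 0.011). The libraries of the 2 genotypes did not overlap for either copy at either age, which was a condition for naming them. The gene fuss itself had an orco2 difference of -0.52 ± 0.21 at day 3 and 0.07 ± 0.21 at day 40, neither of which passed (adjusted p = 0.19 and 0.857 by edgeR).

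Another pair lies on 3L upstream of mthl8, a gene of the methuselah-like receptor family. INE-1{}3487 (21412 to 21838, 590 bases upstream) had 0 counts in w1118, 24 and 20 in orco2 at day 3 and 6 and 10 at day 40, at least 17.1-fold and at least 6.60-fold higher. INE-1{}3476 (20160 to 20765, 1663 bases upstream) had 0 and 1 against 14 and 18 at day 3, a ratio of 37.4 with an exact 95% interval from 6.25 to 1523, and 0 and 0 against 9 and 12 at day 40, at least 8.66-fold higher. Both were higher in orco2 over both ages (adjusted p = 0.00634 and 0.00657 by edgeR). mthl8 went the other way and was lower in orco2 over both ages (-0.44 ± 0.08, adjusted p = 0.00892).

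INE-1{}2730 (2L, 14743941 to 14744048) lies 62 bases downstream of CG34166. Its counts were 0 and 0 in w1118 and 10 and 7 in orco2 at day 3 and 2 and 4 against 40 and 43 at day 40, and CG34166 had 235 and 349 against 1958 and 2058 and 2603 and 3576 against 9240 and 9109 in the same libraries. Both were lowest in young w1118 and highest in old orco2 heads, and in between the insertion was lower in old w1118 than in young orco2 heads while the gene was higher. The insertion was higher in orco2 at day 3 (adjusted p = 0.0266 by edgeR, at least 6.62-fold) and at day 40 (4.03 ± 0.71, adjusted p = 0.0148), and it was the only INE-1 insertion that rose with age in orco2 heads (2.28 ± 0.63, adjusted p = 0.0407). That call with age was lost without any 1 of the 8 libraries (adjusted p from 0.0548 to 0.191).

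**Figure D3:**
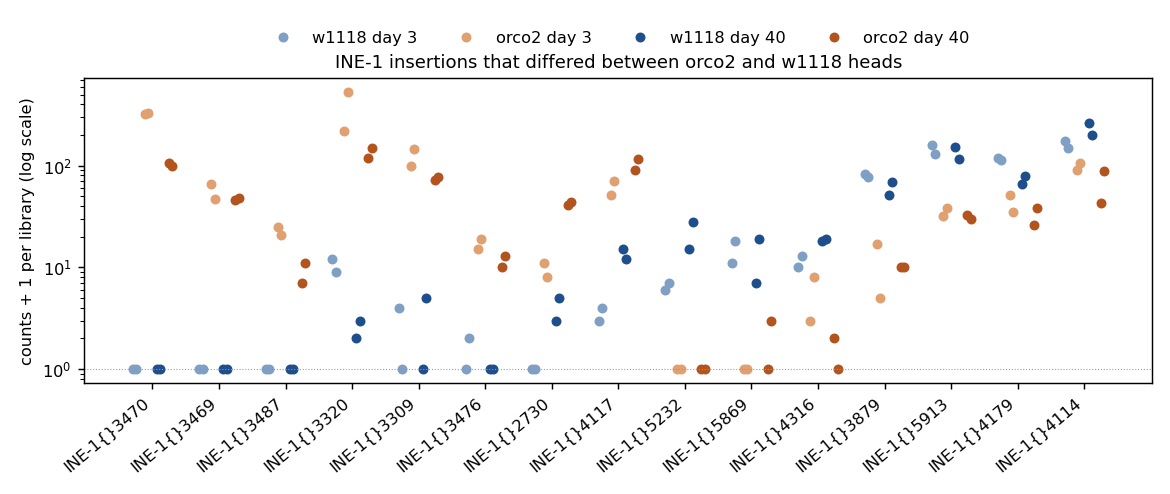
Each point is 1 library, with counts + 1 on a logarithmic y axis and the 15 INE-1 insertions named over both ages on the x axis; a point on the dotted line has no count. The first 8 copies are higher in all 4 orco2 libraries than in all 4 of w1118, with 0 counts in all 4 w1118 libraries for INE-1{}3470, INE-1{}3469 and INE-1{}3487, and the last 7 are lower. This separation of the libraries was a condition for naming the copies.

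The remaining copies read in orco2 alone were INE-1{}1935 in Ekar, a kainate receptor subunit (23, 3, 4 and 6 counts in the day 3 and day 40 libraries), INE-1{}4863, which overlaps a 5′ UTR exon of CG1674 (4, 4, 6 and 2), and INE-1{}2448 in Nipped-A, a subunit of histone acetyltransferase complexes (3, 4, 2 and 3). Those read in w1118 alone were INE-1{}5232 in the autophagy gene Atg17 (5, 6, 14 and 27), INE-1{}2749 near the translation factor gene eIF4G1 (7, 2, 6 and 6), INE-1{}4573 in ND-MLRQ of respiratory complex I (4, 2, 7 and 4) and INE-1{}5973 in the transcription factor gene zfh2 (2, 7, 4 and 2). INE-1{}5232 was at least 11.0-fold lower in orco2 at day 40 (adjusted p = 0.0354 by edgeR), and Atg17 differed by -0.28 ± 0.15 (adjusted p = 0.262). The other 6 of these copies did not pass the count filter, and 36 counts or fewer stood behind each.

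Some copies differed together with their host. INE-1{}4117 (2L, 21371546 to 21371882) and INE-1{}4118 lie in introns of CG8665. INE-1{}4117 had 2 and 3 counts in w1118 and 50 and 69 in orco2 at day 3 and 14 and 11 against 89 and 114 at day 40, a difference of 4.74 ± 0.51 and then 3.31 ± 0.42 (adjusted p = 0.00167 and 0.00295 by edgeR). CG8665 differed by 5.64 ± 0.49 and 5.14 ± 0.47 (adjusted p = 0.000778 and 0.000721). Insertion and host were higher in both orco2 groups without overlap, which for the insertion was a condition for naming it.

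INE-1{}3410 (chromosome 4, 1061502 to 1061989) lies in an intron of apolpp, which encodes the precursor of the lipid carrier lipophorin and is made in the fat body. It had 47 and 40 counts in w1118 and 122 and 190 in orco2 at day 3, and 149 and 116 against 152 and 159 at day 40. It was higher in orco2 at day 3 (2.08 ± 0.32, adjusted p = 0.00785 by edgeR), beside 1.82 ± 0.21 for apolpp, and it rose with age in w1118 (1.52 ± 0.32, adjusted p = 0.017) beside 1.22 ± 0.20 for apolpp. The w1118 day 3 libraries were the low ones in both. The 11 fat body markers, apolpp among them, were lowest in the same group, and their part in this result was not tested.

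Other copies differed while the host did not pass. INE-1{}3227 in nrm had 167 and 139 counts in w1118 and 386 and 300 in orco2 at day 3 (1.38 ± 0.23, adjusted p = 0.0108 by edgeR), beside -0.02 ± 0.18 for nrm. INE-1{}1941 in gw, which encodes the GW182 protein of microRNA silencing, had 16 and 12 against 63 and 56 counts at day 3 and 8 and 11 against 42 and 27 at day 40 (2.30 ± 0.47 and 2.16 ± 0.49, adjusted p = 0.0251 and 0.0281). INE-1{}4461 in the serotonin receptor gene 5-HT2A had 1 and 1 counts against 18 and 23 at day 3 (adjusted p = 0.0361), a ratio of 24.0 with an exact 95% interval from 6.22 to 204, beside -0.09 ± 0.15 for 5-HT2A. The log2 fold change of gw was -0.13 at day 3 and -0.38 at day 40. Of the 7 intronic insertions higher at day 3 whose host was tested, 4 had a host that was higher too. The 4 are the copies in CG9380 and apolpp and the pair in CG8665.

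The copies lower in orco2 had hosts or neighbours that mostly did not pass. INE-1{}5913, 291 bases downstream of lgs, a cofactor of Wnt signalling (chromosome 4, 436341 to 436666), had 157 and 130 counts in w1118 and 31 and 37 in orco2 at day 3 and 153 and 115 against 32 and 29 at day 40. It differed by -1.85 ± 0.31 and -1.82 ± 0.31 (adjusted p = 0.0115 and 0.0102 by edgeR), and lgs by -0.26 ± 0.22 and -0.24 ± 0.22. The difference was about the same at both ages. The libraries did not overlap, which was a condition for naming the copy.

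INE-1{}3879, in an intron of stnB, which acts in synaptic vesicle endocytosis (X, 22983677 to 22983800), had 82 and 77 counts against 16 and 4 at day 3 and 50 and 68 against 9 and 9 at day 40 (-2.77 ± 0.58 and -2.39 ± 0.58, adjusted p = 0.0263 and 0.0354). The row of stnB was listed at 0 in all 8 libraries, so no host value can stand beside it. INE-1{}3643, the copy 100 bases downstream of flip, had 502 and 576 counts against 261 and 179 at day 3 (-1.07 ± 0.22, adjusted p = 0.0234), and 326 and 300 against 300 and 223 at day 40, where it did not pass (0.05 ± 0.22, adjusted p = 0.9). The flip gene did not pass at day 3 and was higher in orco2 at day 40 (0.94 ± 0.14, adjusted p = 0.00545).

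At day 40 the copies that were lower in orco2 also included INE-1{}4114 in the tetraspanin gene Tsp39D, with 260 and 198 counts in w1118 against 42 and 87 (-1.52 ± 0.35, adjusted p = 0.0302 by edgeR). INE-1{}4847 in Crk, an SH2 and SH3 adaptor, had 77 and 62 against 25 and 23 (-1.22 ± 0.29, adjusted p = 0.0319). Lower counts stood behind INE-1{}4316 in the cohesin loader gene Nipped-B (17 and 18 against 1 and 0, a ratio of 28.3 with an exact 95% interval from 4.75 to 1148, adjusted p = 0.0432) and INE-1{}1741 in the methyltransferase gene bin3 (9 and 11 against 0 and 0, adjusted p = 0.0362, at least 5.39-fold lower). INE-1{}1741 lies opposite to the strand of bin3 and also within lncRNA:CR44161, on its strand. That lncRNA did not pass at day 40 (0.58 ± 0.52, adjusted p = 0.508 by edgeR). Of the 8 intronic insertions lower at day 40 whose host was tested, 0 had a host called in either direction. Over both ages INE-1{}5869 on 3R had 10, 17, 6 and 18 counts in w1118 against 0, 0, 0 and 2, a ratio of 21.2 with an exact 95% interval from 5.57 to 180 (adjusted p = 0.0251). INE-1{}4179, 147 bases downstream of CG9902, was lower in orco2 as well (-1.06 ± 0.24, adjusted p = 0.0195) beside -0.67 ± 0.15 for CG9902.

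These calls were repeated with 1 library left out at a time. Over both ages 10 of the 15 named insertions were called in all 8 such fits, namely INE-1{}3470, INE-1{}3469, INE-1{}3487, INE-1{}3320, INE-1{}3309, INE-1{}3476, INE-1{}2730, INE-1{}4117, INE-1{}3879 and INE-1{}5913. At day 3 it was 4 of 11 and at day 40 it was 4 of 16, in both cases INE-1{}3470, INE-1{}3469, INE-1{}3320 and INE-1{}4117. INE-1{}3487 at day 40 was called in 0 of the 8 fits, and without either w1118 library of day 40 or either orco2 library of day 40 the calls of INE-1{}4316, INE-1{}1741 and INE-1{}4847 were lost. No named insertion changed the sign of its difference in these fits. Naming required libraries that do not overlap, so this could hardly have come out otherwise.

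The second comparison was that of age. In w1118 heads, 4 of the 352 INE-1 insertions rose from day 3 to day 40 (1.14%, against a background of 8.56% of all rows) and 10 fell (2.84%, against 7.23%). In orco2 heads 1 rose (0.284%, against 12.8%) and 38 fell (10.8%, against 11.4%). The median log2 fold change of INE-1 was -0.28 in w1118 and -0.77 in orco2, beside 0.04 and -0.01 over all rows, so most tested copies were lower in old heads while few passed the test. Without the count filter, over 1283 INE-1 insertions, the medians were 0 in w1118 and -0.33 in orco2. The w1118 median was -0.16 without w1118 replicate 2 of day 40 and -0.46 without replicate 1. In orco2 289 of 352 lay below 0, and in 179 both day 40 libraries lay below both day 3 libraries (50.9%, against a background of 29.6% of all rows). In w1118 the counts were 231 and 129 (36.6%, against 31.4%).

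The 39 calls in orco2, in either direction, became 4 without orco2 replicate 1 of day 40 and 15 without its replicate 2. Without w1118 replicate 1 or 2 of day 3, which enter through the shared spread, there were 20 and 22, and with only the 4 orco2 libraries in the fit there were 12. With only the 4 w1118 libraries in the fit, 31 were called with age in w1118, against 14 with all 8 libraries, so the order of the strains was then reversed. In orco2 the median over INE-1 kept its sign in all 8 fits that leave out a library and ran from -0.64 to -0.93.

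Of the 38 copies that fell in orco2 heads, 30 lay in introns of 20 hosts, 7 lay between genes and 1 overlapped an exon, and 26 lay on chromosome 4. Introns held 77.6% of the 352 tested and chromosome 4 held 43.2%. The share that fell was near the same in introns (11.0%) and between genes (10.3%). By set, 26 of 152 INE-1 copies on chromosome 4 fell (17.1%) and 0 rose, against 12 (6%) and 1 of 200 elsewhere, and the medians were -0.83 and -0.75. The genes of chromosome 4 fell often too, 37 of 102 tested (36.3%), with 2 higher (1.96%) and a median of -0.38. Over all rows tested 11.4% fell and 12.8% rose. Copies in introns had a median of -0.82 (273 tested) and copies between genes -0.48 (68 tested). In w1118, 34 of the 38 lay below 0 and 8 of them fell.

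Hosts fell with their copies in most cases. For the 30 intronic copies that fell in orco2 heads, 22 had a host that fell and 0 had a host that rose. These copies lay in 20 hosts, with 4 in CaMKII and 3 each in Cadps and nrm, so the 22 count some hosts more than once. Of the 147 tested host genes of INE-1 copies, 57 fell (38.8%) and 8 rose (5.44%), against 11.4% and 12.8% of all rows tested. Over 269 intronic copies with a tested host (137 hosts), the median log2 fold change was -0.83 for the copies and -0.41 for the hosts in orco2, and 198 copies lay below their host. In w1118 the 2 medians were -0.30 and -0.31 and 126 of 269 copies lay below their host. The gap between copy and host, a median of -0.52 in orco2 and 0.02 in w1118, is a description with no test of its own. Across these 269 pairs, which share hosts and libraries, Pearson's r was 0.30 in orco2 and 0.44 in w1118. Intronic copies of other transposons (389 tested) had medians of -0.64 in orco2 and -0.22 in w1118.

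**Figure D4:**
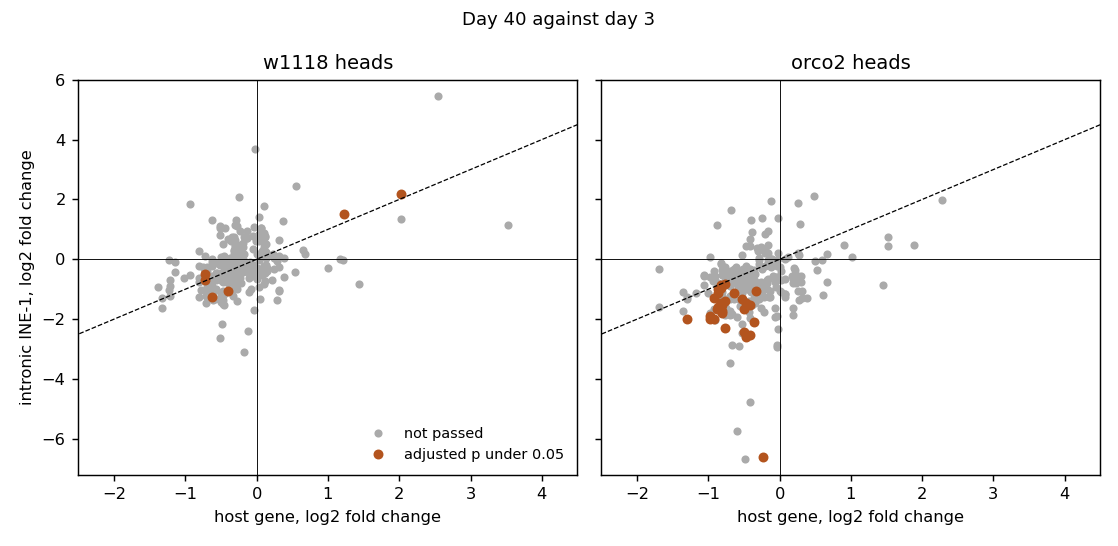
Each point is an intronic INE-1 copy (269 in each panel), with the log2 fold change of day 40 against day 3 of the host gene on the x axis and of the copy on the y axis; the dashed line marks equal change and coloured points passed the test. In orco2 heads 198 points lie below the dashed line, against 126 in w1118 heads.

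CaMKII shows how copies of 1 gene moved. The gene fell with age in w1118 (-0.72 ± 0.11, adjusted p = 0.00509 by edgeR) and in orco2 (-0.82 ± 0.11, adjusted p = 0.00229). INE-1{}3381 fell in both, by 0.51 ± 0.14 and by 0.87 ± 0.14 on the log2 scale (adjusted p = 0.0453 and 0.00485), and INE-1{}3383 by 0.70 ± 0.15 and by 1.47 ± 0.16 (adjusted p = 0.0196 and 0.0012). INE-1{}3383 had 569 and 547 counts in orco2 at day 3 and 215 and 189 at day 40, against 547 and 603 and then 403 and 346 in w1118. As CPM the libraries of the 4 groups did not overlap, with 19.5 and 20.5 in orco2 and 17.0 and 18.2 in w1118 at day 3, a difference that did not pass (0.18 ± 0.15, adjusted p = 0.529 by edgeR). INE-1{}3381 and INE-1{}3383 were also lower in orco2 than in w1118 at day 40 (-0.55 ± 0.14 and -0.58 ± 0.16, adjusted p = 0.0398 and 0.0469), and CaMKII was not called (-0.23 ± 0.11, adjusted p = 0.206). INE-1{}3385 and INE-1{}3388 fell in orco2 (-0.96 ± 0.18 and -0.89 ± 0.28, adjusted p = 0.0081 and 0.0498) and did not pass in w1118 (-0.43 ± 0.18 and -0.38 ± 0.27). The lowest 3 copies of the gene passed in neither genotype, and INE-1{}3409 stood at 0.12 ± 0.33 and -0.15 ± 0.33.

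**Figure D5:**
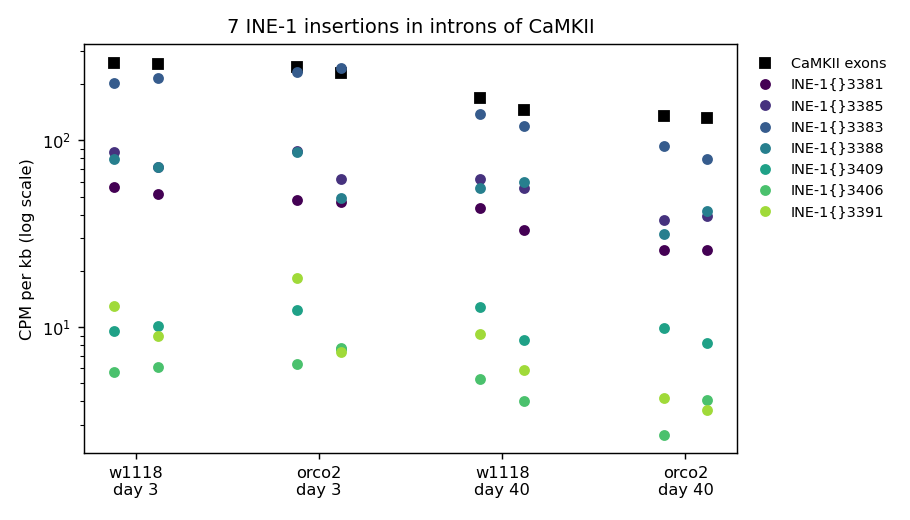
Levels in CPM per kb on a logarithmic y axis for the 7 INE-1 copies in CaMKII (coloured points) and for the exons of the gene (black squares) in the 2 libraries of each group (x axis). The 4 copies of most counts are lowest in the day 40 orco2 libraries, as the exons are.

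The largest falls with age in orco2 were those of copies with few counts. INE-1{}1741 in bin3 went from 13 and 9 counts to 0 and 0 (at least 7.34-fold lower, adjusted p = 0.0164 by edgeR). INE-1{}5912, which overlaps an exon of lncRNA:CR44024 on the opposite strand, went from 23 and 55 to 2 and 0 (adjusted p = 0.0117), a ratio of 39.0 with an exact 95% interval from 10.4 to 328. In w1118 it went from 23 and 15 to 2 and 1, a ratio of 13.4 with an exact 95% interval from 4.26 to 68.0 (adjusted p = 0.0473). The lncRNA had a value of -1.13 ± 0.15 in orco2 and -0.41 ± 0.14 in w1118, and reads of the 2 cannot be told apart where they overlap if strand was not used.

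Copies with more counts that fell in orco2 included INE-1{}4847 in Crk, with 101 and 106 counts at day 3 and 25 and 23 at day 40 (-2.11 ± 0.29, adjusted p = 0.00257 by edgeR), beside -0.36 ± 0.11 for Crk (adjusted p = 0.0525). INE-1{}3992 in Cadps went from 80 and 83 to 13 and 20 (-2.30 ± 0.37, adjusted p = 0.00481), beside -0.77 ± 0.11 for Cadps, and INE-1{}3647, 449 bases downstream of lncRNA:CR45597 on 3R, from 84 and 91 to 21 and 20 (-2.09 ± 0.33, adjusted p = 0.00401). All 3 also fell in w1118, to 77 and 62, 41 and 31, and 46 and 41 counts (-1.06 ± 0.27, -1.27 ± 0.35 and -1.28 ± 0.31, adjusted p = 0.0345, 0.0468 and 0.0284). In the 8 fits that leave out a library, the orco2 calls of INE-1{}4847 and INE-1{}3647 were kept in all, and that of INE-1{}3992 was lost without orco2 replicate 1 of day 40 (adjusted p = 0.0512).

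Other named copies lay in transcription factor genes, INE-1{}3433 in sv (42 and 55 counts to 4 and 12), INE-1{}5431 in toy (19 and 22 to 2 and 5) and INE-1{}3359 in the BTB gene lov (26 and 23 to 4 and 5). Their falls in orco2 were -2.60 ± 0.69, -2.52 ± 0.70 and -2.42 ± 0.69 (adjusted p = 0.0297, 0.0342 and 0.0368 by edgeR), beside -0.47 ± 0.21 for sv, -0.41 ± 0.17 for toy and -0.50 ± 0.12 for lov. Only lov passed among the 3 hosts. The calls of INE-1{}5431 and INE-1{}3359 were kept in 0 of the 8 fits that leave out a library.

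In w1118 heads the 4 copies that rose were INE-1{}3410 and INE-1{}4117, described above with their hosts, INE-1{}2071, 391 bases downstream of gus, and INE-1{}3358, 4322 bases downstream of the ribosomal protein gene RpL10. INE-1{}2071 went from 0 and 3 counts to 61 and 53, a ratio of 35.9 with an exact 95% interval from 12.0 to 176 (adjusted p = 0.0316 by edgeR), beside -0.31 ± 0.10 for gus (adjusted p = 0.0822). In orco2 it had 2 and 0 counts at day 3 and 13 and 2 at day 40, where it did not pass (adjusted p = 0.189). INE-1{}3358 went from 0 and 2 to 23 and 18 counts, a ratio of 19.3 with an exact 95% interval from 5.03 to 165 (adjusted p = 0.0479), and RpL10 rose by 0.58 ± 0.14 on the log2 scale.

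Besides those named, the copies that fell in w1118 included INE-1{}5359 and INE-1{}5358, which lie on chromosome 4, 750 bases downstream of Crk and 549 bases downstream of CG31999 (274 and 252 to 138 and 139 counts, and 212 and 248 to 135 and 90), INE-1{}2899, 345 bases downstream of the glutamate receptor gene mGluR (190 and 215 to 124 and 125), and INE-1{}3643 near flip (502 and 576 to 326 and 300). Their log2 fold changes were -1.01 ± 0.21, -1.11 ± 0.31, -0.78 ± 0.21 and -0.87 ± 0.21 (adjusted p = 0.0182, 0.0449, 0.042 and 0.0313 by edgeR). Of their neighbours, flip (-0.69 ± 0.14) and mGluR (-0.71 ± 0.15) fell as well, while Crk (-0.40 ± 0.11, adjusted p = 0.0513) and CG31999 (-0.28 ± 0.10, adjusted p = 0.0967) did not pass. Without either w1118 library of day 3, or without replicate 2 of day 40, 0 INE-1 insertions were called in w1118, and of the 12 named there 0 were called in all 8 fits.

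The age by genotype interaction asks whether the change with age differed between the strains. No INE-1 insertion passed (0 of 352 in either direction, against a background of 0% higher and 0.00817% lower over all rows by edgeR). At an unadjusted p under 0.05 there were 22, and DESeq2 called 0 as well. The smallest adjusted p among them was 0.294. The median over INE-1 was -0.53 against -0.03 over all rows and -0.13 over the host genes, and 261 of 352 lay below 0. Without orco2 replicate 1 of day 3, 2 INE-1 insertions passed. No difference between strains in the age change of a single copy was thus detected with all 8 libraries, and the larger number of calls in orco2 is not shown to differ from that in w1118.

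Genes that silence transposons were followed beside the copies. Of 50 listed genes of the small RNA pathways and heterochromatin, 48 were matched and 43 tested. At day 3, 0 were higher in orco2 (background 4.85%) and 1 was lower (background 2.43%), namely papi, a Tudor protein of the piRNA pathway (-0.57 ± 0.10, adjusted p = 0.015 by edgeR). At day 40 AGO2, the Argonaute of RNA interference, was lower (-0.49 ± 0.12, adjusted p = 0.033), and papi again (-0.40 ± 0.10, adjusted p = 0.0397), with 0 higher, against backgrounds of 4.89% lower and 8.06% higher. Over both ages mino, squ and Hsc70-4 were higher (background 11.9%) and AGO2, arx and papi lower (background 7.75%), and the list's median was -0.13 against 0.01 over all rows.

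With age, 7 of the 43 rose and 2 fell in w1118, and 7 rose and 4 fell in orco2, with medians of 0.22 and 0.11. Over all rows 8.56% rose and 7.23% fell in w1118 and 12.8% and 11.4% in orco2, and the list was not tested against them. The Tudor gene vret rose in both (2.25 ± 0.41 and 2.52 ± 0.42, adjusted p = 0.0101 and 0.00526 by edgeR), as did mino, a mitochondrial acyltransferase that germline piRNA production needs (1.23 ± 0.22 and 1.39 ± 0.22), and the chaperones Hsc70-4 and Hsp83. piwi (2.50 ± 0.54, adjusted p = 0.0196), krimp (3.37 ± 0.60) and Dcr-1 (0.54 ± 0.11) rose in w1118, and Hen1 (1.07 ± 0.29), nxf2 (1.38 ± 0.38) and the gene of heterochromatin protein HP1a (0.57 ± 0.11) rose in orco2. ctp and Gasz fell in both strains, and the histone methyltransferase gene G9a (-0.60 ± 0.11, adjusted p = 0.00727) and wde (-0.59 ± 0.10) fell in orco2. AGO3, the host of 6 described copies, passed in none of these comparisons.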

How the data were processed

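Members and gene lists were chosen with earlier results of these data known. The authors deposited raw read counts per gene and insertion for heads. Per the submitters' processing notes they used fastp, HISAT2, featureCounts and DESeq2 with dm6. Annotation release, strand setting and treatment of reads mapping to several places are not given in the sources used here, so counts of INE-1 copies, which resemble each other, and of overlapping or antisense features are uncertain. Names and positions came from the Ensembl BDGP6 annotation (release 115), which lacked 2 of the 5416 insertions. No genome sequence was used, so no sequence is shown.

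All 8 head libraries were fitted with edgeR 4.0.16 in R 4.3.3 (TMM, the filterByExpr rule on the 4 groups at its minimum of 10 counts, 4 group means, quasi-likelihood test, threshold 0.05), and this was tested on simulated data. Each SE was taken as the size of the log2 fold change over the square root of the test's F statistic, so it is approximate where a group has few counts. Alternatives included DESeq2 1.42.0. Guts were not used, since their table holds 0 insertions. With a library left out, its partner's spread was taken to be that of the other groups.

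Named insertions were the 12 of highest mean CPM, up to 8 higher and 8 lower per comparison with no overlap of libraries, those read in 1 genotype only, and host genes. INE-1{}1941, INE-1{}3227, INE-1{}4118, INE-1{}3406 and INE-1{}3409, and the neighbouring genes of copies between genes, were named after their values were seen. Folds against a group with no count use a floor of 3 counts over that group. The values of 1 further named insertion are not reported here.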

Additional observations from a re-analysis of the deposited data

Results flagged for a closer look

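For 4 named copies both day 40 libraries lay above both day 3 libraries in w1118 and below them in orco2, yet none of the interactions passed (edgeR, Benjamini-Hochberg). INE-1{}1741 in bin3 had 5 and 4 counts at day 3 and 9 and 11 at day 40 in w1118, and 13 and 9 and then 0 and 0 in orco2. Its fitted interaction of -7.65 ± 1.67 on the log2 scale (adjusted p = 0.294) depends on the prior count, since a group is empty. INE-1{}4461 in 5-HT2A had 1 and 1 and then 8 and 2 counts in w1118 and 18 and 23 and then 4 and 5 in orco2 (-4.27 ± 1.35, adjusted p = 0.399). INE-1{}4316 in Nipped-B had 9 and 12 and then 17 and 18 counts in w1118 and 2 and 7 and then 1 and 0 in orco2 (-3.58 ± 1.54, adjusted p = 0.5). INE-1{}5431 in toy had 8 and 10 and then 16 and 14 counts in w1118 and 19 and 22 and then 2 and 5 in orco2 (-3.17 ± 0.95, adjusted p = 0.38).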

How the results depend on the processing

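Counts of INE-1 insertions called, in either direction, moved most with single libraries. Leaving out 1 library at a time gave 5 to 25 at day 3 (15 with all), 4 to 33 at day 40 (20), 14 to 46 over both ages (25), 0 to 29 with age in w1118 (14), 4 to 45 with age in orco2 (39) and 0 to 2 for the interaction (0), with 2 only without orco2 replicate 1 of day 3. These fits tested 428 to 444 INE-1 insertions in place of 352. The described set was then 664 to 686 and the copies read in 1 genotype alone 11 to 12. With only the 2 groups compared in the fit there were 6 at day 3, 31 with age in w1118 and 12 with age in orco2. The cause was not tested. Deviations of the replicates from their group means had correlations between groups from -0.32 to 0.02, so the replicate numbers showed no common pairing. The lowest was between orco2 at day 3 and w1118 at day 40, and its source was not tested. The replicate block gave 9 at day 40 (20 without it) and 7 with age in w1118 (14 without it), and stayed within 1.5 times of the other counts. DESeq2's test gave 17, 22, 29, 17, 46 and 0, in the order above. A minimum sum of 1 count would describe 1283 insertions and one of 50 would describe 360. Copies read in 1 genotype alone were 6 with a sum of at least 20, 4 with at least 50 and 18 with at most 2 counts in place of 0. Without the 3 insertions of most reads the summed level was 576 and 631 CPM in w1118 and orco2 at day 3 and 471 and 390 CPM at day 40, in the same order. The check for sequence shared between copies was not run, since no genome sequence was used.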
